A study of Mus musculus with 9 samples.

Results

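The transcription factors TWIST1, TWIST2, PRRX1, SNAI1, SNAI2, ZEB1, ZEB2, RUNX1, RUNX2 and TCF4 are best known from mesenchymal cells. Their 10 genes were taken by symbol from the table of normalized counts, and all 10 were among its 15184 genes. PolyA+ RNA of mouse embryonic fibroblasts (MEFs, connective tissue cells grown from mouse embryos) was sequenced in 9 libraries, 3 of each group. The groups are labelled Empty, SAM1 and SAM2, and the latter both carry the genotype label Hnrnpk_SAM. Wild-type MEFs had been transduced with lentiviruses for the synergistic activation mediator system, in which a dCas9 protein without cutting activity brings transcription activators to a promoter chosen by a guide RNA. The methods give lentiMPHv2 (the helper activators) and lentiSAMv2 (the dCas9 fusion and the guide), used with guides against the promoter of *Hnrnpk* singly and with a nontargeting guide in the control, followed by selection with blasticidin and hygromycin. Whether the Empty cells of these libraries also received lentiMPHv2 and both drugs is not stated in so many words. The control is labelled Empty vector, and the methods print the same sequence for the nontargeting guide and for one of the guides against *Hnrnpk*. Neither source used here says which guide SAM1 or SAM2 carries, whether a line is 1 clone, or whether libraries of one label came from separate cultures. The p-values below then measure the spread between these libraries, which may be technical.

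*Hnrnpk*, the gene that the system was meant to activate, had 25058, 26098 and 26164 normalized counts in Empty, 24102, 24044 and 23619 in SAM1 and 26608, 26859 and 26221 in SAM2. It was lower in the libraries labelled SAM1 (log2 fold change -0.11, adjusted p = 0.00252, limma) and its difference in SAM2 did not pass (0.044, 95% interval -0.014 to 0.10, adjusted p = 0.159). With quantile normalization the values were 0.094 (adjusted p = 0.00502) and 0.22 (adjusted p = 4.59e-06). A rise of *Hnrnpk*, which the system is meant to give, was thus not seen at the deposited scale, and its direction in SAM1 turned with the scaling. The study also measured *Hnrnpk* by qRT-PCR and Western blot, which were not analysed here. SAM1 and SAM2 stand below for the libraries so labelled. A normalized count is the number of reads on a gene divided by the DESeq2 size factor of its library, and fold changes are of normalized count + 1 on the log2 scale. Calls are adjusted p-values below 0.05 over all genes (limma, Benjamini-Hochberg, two-sided). Reads on the listed genes came to between 41759636 and 49026626 per library, and the sum of normalized counts ranged from 43909100 to 49042000.

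As background, these proteins bind DNA and set which genes a mesenchymal cell uses. TWIST1 and TWIST2 are basic helix-loop-helix (bHLH) factors that pair with E proteins such as TCF4, while the ID proteins bind E proteins and keep them off DNA. The zinc finger proteins SNAI1, SNAI2, ZEB1 and ZEB2 bind E-boxes, repress epithelial genes such as *Cdh1* (E-cadherin) and drive the epithelial-to-mesenchymal transition. RUNX1 and RUNX2 act with their partner CBFB, RUNX1 in blood formation and RUNX2 in bone formation, and PRRX1 is a homeodomain factor of limb and face mesenchyme.

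The libraries had the high levels of mesenchymal genes that the label MEF implies. *Vim* (vimentin, an intermediate filament) had 80507 ± 2644 normalized counts in Empty, 118053 ± 3400.1 in SAM1 and 76294 ± 600.0 in SAM2 (mean ± SD, n = 3 in each group, here and below). *Postn* (periostin, a matrix protein) had 129504 ± 4685 in Empty and *Cdh1* 33.9 ± 7.10. The 10 transcription factor genes summed to 53736 to 56598 normalized counts in the Empty libraries, 50829 to 53478 in SAM1 and 47478 to 47719 in SAM2, without overlap. *Prrx1* alone had 24050 ± 645, 20402 ± 926 and 17021 ± 133 in the same order, so these sums depend largely on this gene. They do not show how most of the 10 moved. Over all genes the sums were 48686600 to 49042000 in Empty, 43909100 to 44464100 in SAM1 and 45390300 to 45489900 in SAM2.

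In SAM1, 9 of the 10 genes passed the test, 5 higher and 4 lower than in Empty. Over all genes, 74.3% passed in this comparison, 37.3% higher and 36.9% lower, so the count for the 10 is read against a table in which most genes differed. In SAM2, 8 of 10 passed, 3 higher and 5 lower, beside 70.5% of all genes, 35.2% higher and 35.3% lower. The counts for the other gene lists below are read against these same shares. The median size of the log2 fold change was 0.24 for the 10 genes and 0.38 for all genes in SAM1, and 0.25 and 0.33 in SAM2. *Snai1*, *Runx2* and *Tcf4* were higher in both lines. *Prrx1*, *Snai2*, *Zeb1* and *Runx1* were lower in both. *Twist2* and *Zeb2* passed in SAM1 alone and *Twist1* in SAM2 alone, and the test between the lines passed for *Twist1* and *Twist2* but not for *Zeb2* (adjusted p = 0.0922). *Zeb2* did pass between the lines with quantile normalization (-0.17, adjusted p = 0.0106), without Empty replicate 2 (adjusted p = 0.0128) and without SAM1 replicate 2 (-0.15, adjusted p = 0.0344). Between the lines, 9 of 10 genes differed, beside 60.3% of all genes. *Snai2*, *Zeb1* and *Tcf4* were higher in SAM2 than in SAM1, beside 31.1% of all genes, and 6 genes were lower, beside 29.2%. The median size of this difference was 0.29 for the 10 genes and 0.23 for all genes. RNA was taken from whole cultures, so fewer cells of a type and less RNA per cell cannot be told apart.

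**Figure D1:**
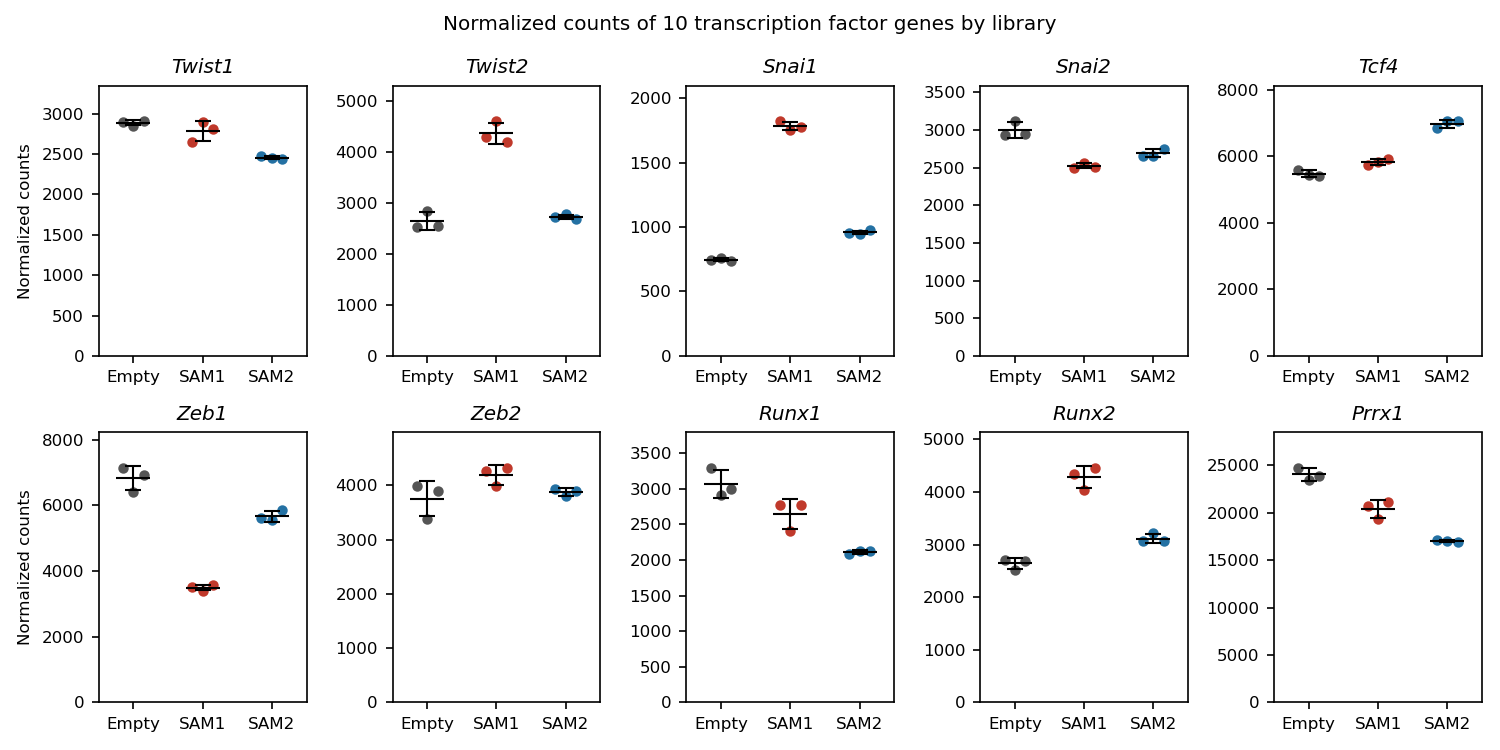
Normalized counts (vertical axes, each from 0) of the 10 transcription factor genes in the 9 libraries; points are libraries, horizontal lines are group means and bars are the SD of 3 libraries. The SAM1 libraries of Snai1 (1756 to 1821) and Zeb1 (3400 to 3576) sit apart from those of both other groups.

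**Figure D2:**
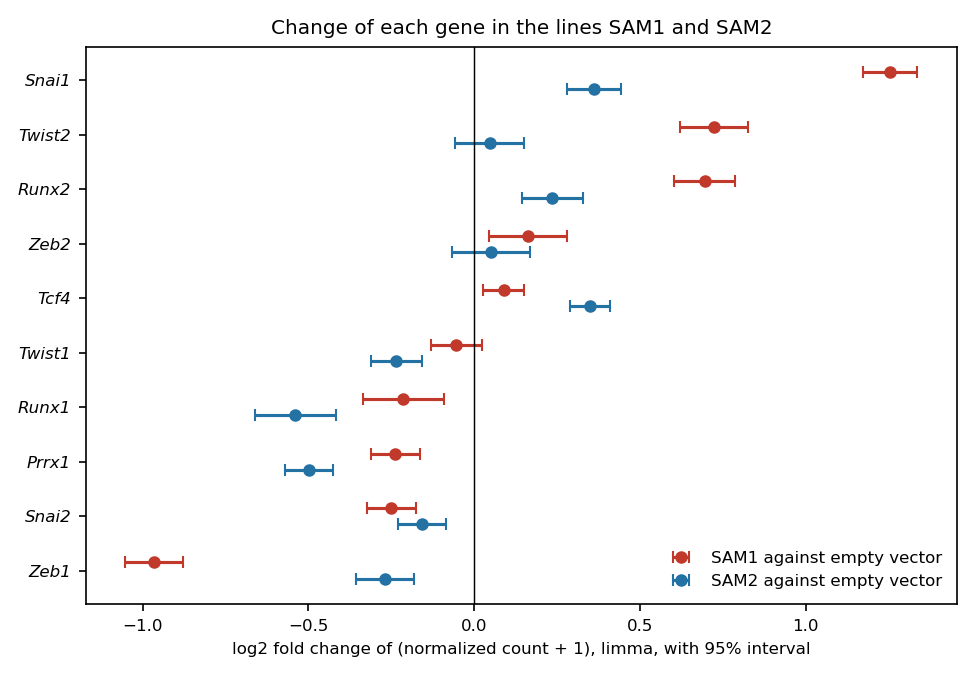
Log2 fold change of normalized count + 1 against Empty (horizontal axis) for each gene (vertical axis), with the 95% interval from limma; red is SAM1 and blue is SAM2. Intervals of Twist1 in SAM1 and of Twist2 and Zeb2 in SAM2 include 0.

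*Snai1* had the largest rise of the 10 genes in each line. This gene on the plus strand, at chr2:167380113-167384734 (GRCm39, as are all gene positions here unless named otherwise), encodes the SNAIL repressor. Its promoter in RefSeq (GRCm38.p6) is shown because it holds the E-box to which SNAIL and ZEB proteins bind, CACCTG, written in capitals, 126 bases before the start of transcription. The printed stretch is the 250 bases before that start, chr2:167537945-167538194, plus strand.
Snai1: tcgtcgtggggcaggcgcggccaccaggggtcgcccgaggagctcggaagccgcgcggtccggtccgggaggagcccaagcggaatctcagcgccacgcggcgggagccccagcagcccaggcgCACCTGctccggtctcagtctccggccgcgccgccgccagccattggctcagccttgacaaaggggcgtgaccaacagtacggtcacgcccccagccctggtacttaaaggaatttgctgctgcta
The E-box (CAGGTG or its reverse complement CACCTG, both strands) was found in 20.2% of the 32817 promoter windows of 300 bases in the RefSeq table and in 2 of the 11 windows of the 7 genes matched there. The other match was a window of *Runx1*, 136 bases before its start. *Snai2* was not matched, and windows of *Zeb1* and *Tcf4* were not used here.

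*Snai1* had 742, 759 and 737 normalized counts in Empty, 1821, 1756 and 1773 in SAM1 and 957, 947 and 973 in SAM2. No library of one group overlapped another group, with SAM1 the highest and SAM2 between. The rise was 2.39-fold in SAM1 (log2 1.26, SE 0.0376, adjusted p = 4.8e-12, limma) and 1.29-fold in SAM2 (0.36, SE 0.0376, adjusted p = 1.51e-06), and the lines differed by -0.89 (SAM2 minus SAM1, adjusted p = 4.63e-10). Its paralog *Snai2* (SLUG) went the other way in both lines. *Snai2*, at chr16:14523425-14527252 on the plus strand, had 2936, 3114 and 2945 normalized counts in Empty, 2494, 2561 and 2511 in SAM1 and 2656, 2658 and 2747 in SAM2. Every Empty library lay above all 6 others. The log2 fold change was -0.25 (SE 0.0337, adjusted p = 1.69e-05, limma) in SAM1 and -0.16 (SE 0.0337, adjusted p = 0.000947) in SAM2. The difference between the lines was small (0.092, adjusted p = 0.0318), and it no longer passed with quantile normalization (0.029, adjusted p = 0.49) or without SAM1 replicate 1 (adjusted p = 0.0937), SAM1 replicate 3 (0.0773) or SAM2 replicate 1 (0.055), 2 (0.0553) or 3 (0.123).

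*Zeb1* had the largest fall of the 10 genes in SAM1. It spans chr18:5591851-5775467 on the plus strand and encodes a zinc finger and homeodomain repressor. Its normalized counts were 7145, 6416 and 6925 in Empty, 3513, 3399.9 and 3576 in SAM1 and 5603, 5538 and 5855 in SAM2. The groups did not overlap, and SAM2 again lay between Empty and SAM1. The SAM1 level was 0.512 of that in Empty (log2 -0.96, SE 0.0404, adjusted p = 1.27e-10, limma). In SAM2 it was 0.83 of Empty (-0.27, SE 0.0404, adjusted p = 5.06e-05), and the lines differed by 0.70 (adjusted p = 1.01e-08). *Zeb2*, the paralog on the minus strand at chr2:44873644-45007464, had 3984, 3377 and 3893 normalized counts in Empty, 4266, 3981 and 4322 in SAM1 and 3930.3, 3803 and 3893 in SAM2. Both lines overlapped Empty, where replicate 2 was the lowest of the 9 libraries. The rise in SAM1 (log2 0.16, SE 0.0541, adjusted p = 0.0156, limma) no longer passed without Empty replicate 2 (0.088, adjusted p = 0.0538), SAM1 replicate 1 (adjusted p = 0.0526) or SAM1 replicate 3 (adjusted p = 0.0584). In SAM2 the value was 0.051 (95% interval -0.066 to 0.17, adjusted p = 0.419), and without Empty replicate 2 it was -0.023 (adjusted p = 0.611).

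SNAIL and ZEB proteins repress through partners such as the CTBP proteins, histone deacetylases, LSD1 (*Kdm1a*) and Polycomb group proteins. Of 18 such corepressor genes, 7 were higher and 7 lower in SAM1 (median log2 fold change -0.024, all genes 0.0093), and 6 were higher and 7 lower in SAM2 (median 0.012, all genes -0.0015). With quantile normalization the split was 11 higher and 6 lower in SAM1 (median 0.12) and 9 higher and 6 lower in SAM2 (median 0.063). *Ctbp1* did not pass in SAM1 (-0.055, adjusted p = 0.149, limma), where quantile normalization turned it to 0.11 (adjusted p = 0.00882), and its fall in SAM2 (-0.14, adjusted p = 0.00147) was -0.030 there (adjusted p = 0.454). *Ctbp2* fell in both (-0.49 and -0.55). *Wtip* and *Limd1*, LIM proteins of the AJUBA family that bind SNAIL, fell in both lines, *Wtip* by log2 values of -0.84 and -0.40 and *Limd1* by -0.48 and -0.29. *Ajuba* itself, on the same list and named after its values were seen, rose in both lines (0.17 and 0.33). The Polycomb genes *Ezh2* and *Suz12* went up in both. *Ezh2*, the histone H3 lysine methyltransferase, changed by 0.75 in SAM1 and 0.61 in SAM2, and *Suz12*, its complex partner, by 0.35 and 0.53.

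SNAIL is also set at the protein level, by kinases, phosphatases and ubiquitin ligases. Of 11 such genes, 2 were higher and 5 lower in SAM1 (median log2 fold change -0.074, all genes 0.0093), and 2 were higher and 4 lower in SAM2 (median -0.081, all genes -0.0015). Over all genes, 37.3% were higher and 36.9% lower in SAM1, and 35.2% and 35.3% in SAM2. The list mixes genes that raise and genes that lower SNAIL protein, so its counts and medians give no direction for SNAIL. *Pak1*, a kinase that phosphorylates SNAIL, had 2981 ± 41.5 normalized counts in Empty, 2296 ± 31.0 in SAM1 and 1904 ± 32.8 in SAM2 (-0.38 and -0.65 on the log2 scale). *Fbxl5*, an F-box protein of a ubiquitin ligase, fell in both lines (-0.56 and -0.22). The F-box genes *Fbxo11* and *Fbxw7* passed in 1 line each, *Fbxo11* in SAM2 (0.24, against 0.02 in SAM1) and *Fbxw7* in SAM1 (-0.24, against -0.081 in SAM2), while with quantile normalization each passed in both lines. Both genes differed between the lines (adjusted p = 0.000253 and 0.00634, limma). SNAIL protein was not measured in these libraries.

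*Twist1* and *Twist2* separated the lines. *Twist2*, at chr1:91729176-91796542 on the plus strand, had 2527, 2843 and 2548 normalized counts in Empty, 4279, 4595 and 4189.5 in SAM1 and 2714, 2771 and 2683 in SAM2. All SAM1 libraries lay above the other 6, and SAM2 overlapped Empty. *Twist2* was 1.65-fold higher in SAM1 (log2 0.72, SE 0.0475, adjusted p = 1.24e-08, limma). In SAM2 the value was 0.047 (95% interval -0.056 to 0.15, adjusted p = 0.397), and of the alternatives run it passed in 1, without Empty replicate 2 (0.10, adjusted p = 0.0391). The lines differed by -0.68 (adjusted p = 6.36e-08). *Twist1*, at chr12:34007645-34009828 on the plus strand, had 2900.2, 2853 and 2907 in Empty, 2648, 2895 and 2807 in SAM1 and 2472, 2452 and 2436 in SAM2. Here SAM2 lay below the other 6 libraries and SAM1 overlapped Empty. The log2 fold change was -0.23 in SAM2 (SE 0.0355, adjusted p = 5.26e-05, limma) and -0.053 in SAM1 (95% interval -0.13 to 0.024, adjusted p = 0.19), where it reached an adjusted p of 0.0491 without SAM1 replicate 2. With quantile normalization the SAM1 value was 0.0066 (adjusted p = 0.876). The lines differed by -0.18 (adjusted p = 0.000671).

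*Tcf4* (E2-2), a partner of the TWIST proteins, spans chr18:69476427-69822150 on the plus strand. It had 5599, 5433 and 5411 normalized counts in Empty, 5753, 5826 and 5909 in SAM1 and 6842, 7059 and 7051 in SAM2. The 3 groups followed each other without overlap, and SAM2 was the highest. The log2 fold change was 0.089 in SAM1 (SE 0.028, adjusted p = 0.0114, limma) and 0.35 in SAM2 (SE 0.028, adjusted p = 1.19e-07), and the lines differed by 0.26 (adjusted p = 3.95e-06). *Tcf4* was the only one of the 10 genes that rose in both lines and more in SAM2.

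The other E protein genes and the ID genes were compared in the same way. *Tcf3* (E2A) fell in both lines (-0.16 and -0.20), although its fall in SAM1 did not pass with quantile normalization (-0.049, adjusted p = 0.16), and *Tcf12* (HEB) rose in SAM2 (0.23, adjusted p = 0.00158, limma) with -0.014 in SAM1 (adjusted p = 0.821), where quantile normalization gave 0.12 (adjusted p = 0.0513). All 4 ID genes rose in SAM1. *Id2* had 533, 558 and 544 normalized counts in Empty, 2369, 2647 and 2513 in SAM1 and 591, 633 and 664 in SAM2, a 4.59-fold rise in SAM1 (log2 2.20, adjusted p = 6.62e-13, limma) and a smaller one in SAM2 (0.21, adjusted p = 0.00381, and 0.0572 with quantile normalization). *Id4* had 352, 371 and 383 in Empty, 1539.5, 1564 and 1544 in SAM1 and 350.1, 335 and 329 in SAM2. Its log2 fold change was 2.07 in SAM1 and -0.12 in SAM2 (adjusted p = 0.0413, limma), but the small fall in SAM2 did not pass with edgeR (adjusted p = 0.0657) or DESeq2 (adjusted p = 0.15). *Id1* (1.10 and 0.23) and *Id3* (1.13 and 0.17) rose in both. *Id3* was the most abundant ID gene by normalized count, with 3683 ± 191 in Empty and 8092 ± 572 in SAM1. Over these 6 genes the median log2 fold change was 1.11 in SAM1 and 0.19 in SAM2, with 4 higher and 1 lower in SAM1 and 4 higher and 2 lower in SAM2. With quantile normalization 4 were higher and 0 lower in SAM1.

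*Runx1* and *Runx2* moved in opposite directions. Their promoters are shown together because both hold the same pair of RUNX core motifs. The sequences below are 30 bases on the minus strand just after the RefSeq start of transcription (GRCm38.p6), at chr16:92826025-92826054 for *Runx1* and chr17:44814583-44814612 for *Runx2*, with the core ACCACA (reverse complement of TGTGGT) in capitals.
Runx1: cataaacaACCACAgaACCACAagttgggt
Runx2: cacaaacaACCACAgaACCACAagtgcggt
The cores begin 28 and 36 bases after the start in *Runx1* and 23 and 31 bases after it in *Runx2*, and 27 of the 30 bases were identical. *Runx2* had a further core 80 bases before its start. The core was found on either strand in 16.8% of the 32817 windows, and a pair of cores 2 bases apart in 7 windows (0.0213%), those of *Runx1*, *Runx2*, *Runx3*, *Gm12236*, *Gm15462*, *Gm16225* and *Olfr24*. RefSeq lists another start for *Runx1*, whose window held no core.

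*Runx1* (chr16:92398354-92623037, minus strand) had 3295, 2917 and 2999 normalized counts in Empty, 2769, 2408 and 2776 in SAM1 and 2079, 2124 and 2125 in SAM2. Levels went down from Empty to SAM1 to SAM2 with no overlap. The log2 fold change was -0.21 in SAM1 (SE 0.0564, adjusted p = 0.00399, limma) and -0.54 in SAM2 (SE 0.0564, adjusted p = 1.62e-06), the largest fall of the 10 genes in that line, and the lines differed by -0.33 (adjusted p = 0.00025). *Runx2* (chr17:44806874-45125684, minus strand) had 2711, 2523 and 2690.4 in Empty, 4339, 4041 and 4459 in SAM1 and 3064, 3209 and 3058 in SAM2. It was higher in all 6 libraries of the lines than in any Empty library, and highest in SAM1. Its rise was 1.62-fold in SAM1 (log2 0.70, SE 0.0424, adjusted p = 5.77e-09, limma) and 1.18-fold in SAM2 (0.24, SE 0.0424, adjusted p = 0.000232), with -0.46 between the lines (adjusted p = 9.2e-07).

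*Cbfb*, whose protein the RUNX factors need for stable DNA binding, did not pass in either line (0.055, adjusted p = 0.128, and -0.072, adjusted p = 0.0575, limma), with 10591 ± 120.3 normalized counts in Empty. With quantile normalization its value in SAM1 was 0.19 (adjusted p = 7.65e-05) and in SAM2 0.00034, and with edgeR the SAM2 value passed (-0.074, adjusted p = 0.0433). Of 10 genes for RUNX partners and relatives, 6 were higher and 1 lower in SAM1 (median log2 fold change 0.26), and 4 were higher and 3 lower in SAM2 (median -0.022), beside 37.3% and 36.9% of all genes in SAM1 and 35.2% and 35.3% in SAM2. With quantile normalization the SAM2 median turned to 0.063, with 5 higher and 4 lower. *Tle1*, a corepressor of the Groucho family, rose in SAM1 (0.62) and fell in SAM2 (-0.26, difference between the lines -0.88, adjusted p = 2.77e-10, limma). *Runx1t1* (ETO), a corepressor, fell in both (-0.78 and -0.16), whereas its relative *Cbfa2t2* (0.53 and 0.42) and *Tle2* (0.52 and 0.35) rose in both. *Runx3*, the remaining family member, was named after its values were seen. It had 550.1 ± 22.2 normalized counts in Empty, 535 ± 21.9 in SAM1 and 650.4 ± 35.0 in SAM2, and passed in SAM2 alone (0.24, adjusted p = 0.00202, against -0.041 in SAM1, adjusted p = 0.532), with a difference between the lines of 0.28 (adjusted p = 0.00087, limma).

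Of 6 bone and cartilage genes in the table, 3 were higher and 2 lower in SAM1 (median 0.44) and 3 were higher and 3 lower in SAM2 (median -0.12). With quantile normalization 2 were higher and 2 lower in SAM1 (median 0.12), and 2 higher and 3 lower in SAM2 (median -0.21). *Spp1* (osteopontin), a known RUNX2 target, had 25932 ± 663 normalized counts in Empty, 57766 ± 1784 in SAM1 and 32547 ± 226 in SAM2 (1.16 and 0.33). *Vdr*, the vitamin D receptor, rose more (11.5-fold and 4.24-fold), while *Tnfrsf11b* (osteoprotegerin, -0.41 and -0.62) fell in both lines. *Runx2*, *Spp1* and *Vdr* thus rose in both lines and more in SAM1 (difference -0.83 for *Spp1* and -1.43 for *Vdr*). The bone genes *Alpl*, *Ibsp*, *Bglap*, *Dmp1*, *Sost* and *Col10a1* were on the list but not in the table.

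*Prrx1* was by far the most abundant of the 10 genes by normalized count and fell in both lines. It lies on the minus strand at chr1:163041844-163142033. It had 24760.0, 23499.8 and 23891 in Empty, 20684, 19368 and 21155 in SAM1 and 17161, 17004 and 16897 in SAM2. The groups were ordered Empty, SAM1, SAM2 with no overlap. The log2 fold change was -0.24 in SAM1 (SE 0.0339, adjusted p = 2.74e-05, limma) and -0.50 in SAM2 (SE 0.0339, adjusted p = 2.34e-08), and the lines differed by -0.26 (adjusted p = 2.24e-05). The fall in SAM1 did not pass with quantile normalization (-0.017, adjusted p = 0.646). *Prrx1* was among the 1519 genes with the highest mean level, whose median log2 fold change in SAM1 was -0.12 as tested and 0.043 with quantile normalization. The part of this shift in the fall of *Prrx1* was not tested. Its paralog *Prrx2*, named after its values were seen, had 2087 ± 76.5 normalized counts in Empty, 2454 ± 33.0 in SAM1 and 1307 ± 22.8 in SAM2. *Prrx2* was higher in SAM1 (0.23, adjusted p = 5.67e-05, limma) and lower in SAM2 (-0.67, adjusted p = 2.17e-09).

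Beside the 10 genes, a list of 45 further mesenchymal transcription factors had 33 genes in the table. In SAM1, 19 of them were higher and 10 lower (median log2 fold change 0.24), and in SAM2 15 were higher and 9 lower (median 0.093). These counts stand beside 37.3% higher and 36.9% lower over all genes in SAM1, and 35.2% and 35.3% in SAM2. With quantile normalization 20 were higher and 8 lower in SAM1 (median 0.28), and 14 higher and 11 lower in SAM2 (median 0.037). A low gene can enter the table through the group in which it is high. The part of this in the counts was not tested. *Foxc2*, a forkhead factor of vessels and mesenchyme, rose in both lines (2.15 and 1.68). The forkhead gene *Foxd1* (1.22 and 1.66) and *Ebf1* (1.38 and 1.08) also rose in both. *Sox9*, the master regulator of cartilage, rose 3.56-fold in SAM1, from 1731 ± 50.6 to 6162 ± 80.1 normalized counts, and 1.35-fold in SAM2. Like *Snai1*, *Runx2* and the ID genes *Id1*, *Id2* and *Id3*, it rose in both lines and more in SAM1 (difference -1.40, adjusted p = 2.98e-12, limma). The genes of this list named in this paragraph were all higher in both lines. None of the 10 that were lower in SAM1 or the 9 that were lower in SAM2 is among them.

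Levels of different genes were compared per kb of exon (union of exons, GENCODE vM39). The union holds every annotated exon, with 1653 bases for *Twist1*, 16550 for *Prrx1* and 28277 for *Tcf4*. Which transcripts these cells use was not determined, so the order between genes depends on these lengths. In Empty the order was *Twist1* (1746 normalized counts per kb), *Prrx1* (1453), *Snai2* (1295), *Zeb1* (501), *Twist2* (474), *Snai1* (460), *Runx2* (299), *Runx1* (242), *Tcf4* (194) and *Zeb2* (165). The libraries of *Zeb1* overlapped those of *Twist2*, and those of *Twist2* overlapped *Snai1*. *Twist1* stayed first per kb in every group, while *Prrx1* was first in every group by normalized count. In SAM1, *Snai1* (1099 per kb) stood below *Prrx1* (1233) and beside *Snai2* (1089), with overlapping libraries, *Runx2* (484) stood above *Zeb1* (256), and *Runx1* (209) overlapped *Tcf4* (206). In SAM2, *Snai2* (1161) stood above *Prrx1* (1028), and *Zeb2* (170) and *Runx1* (167) overlapped at the bottom. *Zeb2* was the lowest in Empty and SAM1.

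Each paralog pair changed its balance. The share of *Snai2* in the summed per-kb level of *Snai1* and *Snai2* was 73.8 ± 0.354% in Empty, 49.8 ± 0.787% in SAM1 and 66.3 ± 0.196% in SAM2 (mean ± SD, n = 3). The share of *Zeb2* in its pair was 24.7 ± 0.663%, 41.8 ± 0.482% and 29.1 ± 0.555% in the same order. In both pairs SAM1 was far from Empty and SAM2 lay between. The share of *Twist2* was 21.3 ± 1.29% in Empty, 31.7 ± 0.896% in SAM1 and 24.8 ± 0.294% in SAM2. The share of *Runx2* was 55.2 ± 1.08%, 69.9 ± 0.731% and 67.9 ± 0.528%, so for this pair both lines sat close together. Without division by exon length, the *Twist2* share was 47.7% in Empty, 61.0% in SAM1 and 52.6% in SAM2. These shares are descriptions of the levels given above, without a further test.

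**Figure D3:**
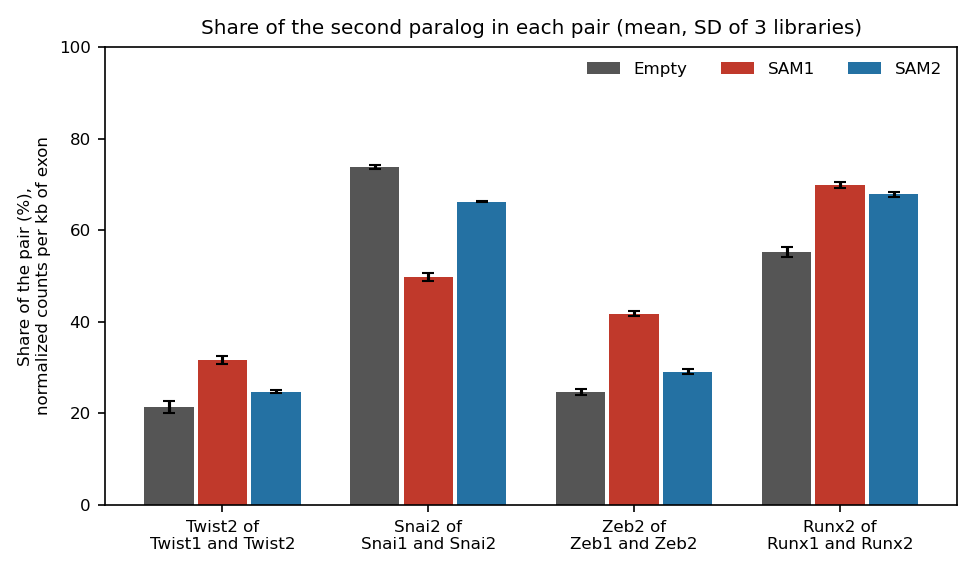
Share (%) of one paralog in the summed normalized counts per kb of its pair (vertical axis, from 0 to 100), for 4 pairs (horizontal axis); bars are means and error bars the SD of 3 libraries of Empty, SAM1 and SAM2. The Snai2 share fell from 73.8% in Empty to 49.8% in SAM1, and the Runx2 share was 55.2%, 69.9% and 67.9%.

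SNAIL and ZEB proteins are known as repressors of epithelial genes, and 13 of 29 listed epithelial genes were in the table. In SAM1, 10 of the 13 were higher and 2 lower (median log2 fold change 0.92), and in SAM2 7 were higher and 2 lower (median 0.45). The shares of all genes were 37.3% higher and 36.9% lower in SAM1 and 35.2% and 35.3% in SAM2. With quantile normalization 7 were higher and 2 lower in SAM1 (median 0.93), and 5 were higher and 2 lower in SAM2 (median 0.30). The table keeps genes above 10 in at least 30% of libraries, so a low gene can be listed through the group in which it is high. The 1519 genes with the lowest mean level had a median log2 fold change of 0.52 in SAM1 as tested and -0.20 with quantile normalization. The part of this shift and of the filter in the epithelial counts was not tested. *Cdh1* itself had 41.9, 28.4 and 31.5 normalized counts in Empty, 86.4, 85.9 and 93.8 in SAM1 and 39.6, 20.4 and 37.1 in SAM2. It was low in every library but higher in SAM1 (2.6-fold, log2 1.38, SE 0.228, adjusted p = 0.000106, limma), the line in which *Snai1* was highest and *Zeb1* lowest, with -0.10 in SAM2 (adjusted p = 0.703). *Cdh3* (P-cadherin) rose 3.14-fold and 2.95-fold. The tight junction genes *Cldn4* and *Cldn1* went apart. *Cldn4* had 366 ± 18.5 normalized counts in Empty, 3691 ± 75.6 in SAM1 and 211 ± 21.0 in SAM2, so it rose in SAM1 and fell in SAM2, and *Cldn1* fell in both (-1.75 and -1.23). The listed epithelial genes summed to 3985 to 4149 normalized counts in Empty, 12002 to 12364 in SAM1 and 6462 to 6465 in SAM2. *Epcam*, *Krt18*, *Cldn7*, *Esrp1*, *Grhl2*, *Ovol1* and other epithelial genes of the list were not in the table. Whether epithelial cells had a part in these levels was not tested.

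The 16 mesenchymal markers went mostly down in SAM1, with 4 higher and 12 lower (median log2 fold change -0.58), and 4 higher and 10 lower with quantile normalization (median -0.32). In SAM2, 5 were higher and 7 lower (median -0.0020), and with quantile normalization 7 were higher and 4 lower (median 0.094). *Vim* rose in SAM1 (0.55), and its small fall in SAM2 (-0.077, adjusted p = 0.0433, limma) turned into a rise with quantile normalization (0.34). *Cdh2* (N-cadherin) had 25705 ± 495 normalized counts in Empty, 17239.5 ± 162 in SAM1 and 13426 ± 151 in SAM2 (-0.58 and -0.94). *Cdh11*, the cadherin of fibroblasts and osteoblasts, fell in both (-0.85 and -0.76), as did the matrix genes *Dcn* (decorin, -2.12 and -2.22) and *Postn* (-1.37 and -0.22), although for *Postn* the SAM2 value was 0.21 with quantile normalization. The markers named here were all lower in SAM2 as tested, and none of the 5 that were higher there is among them. The 16 markers summed to 1278770 to 1380860 normalized counts in Empty, 1002510 to 1061790 in SAM1 and 1378190 to 1420390 in SAM2. By this sum SAM1 lay below the other groups and SAM2 overlapped Empty. The lists of mesenchymal markers and epithelial genes were drawn up from textbook knowledge, and the medians stand beside 0.0093 (SAM1) and -0.0015 (SAM2) over all genes.

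**Figure D4:**
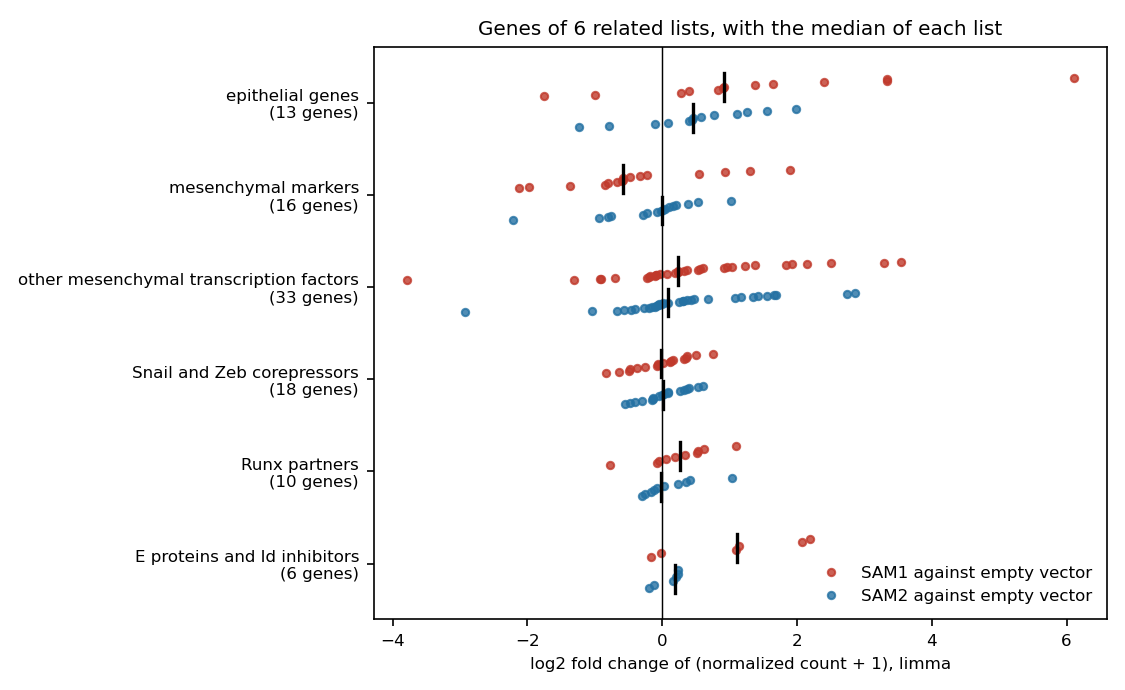
Log2 fold change against Empty (horizontal axis, normalized count + 1, limma) of the genes of 6 lists related to the transcription factors (vertical axis, with the number of genes in the table); red points are SAM1, blue points SAM2 and black bars list medians. Medians in SAM1 were 0.92 for epithelial genes, -0.58 for mesenchymal markers and 1.11 for E proteins and ID genes.

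Markers of other cell types also differed between the groups. Of 6 endothelial markers 4 were in the table, with sums of 301 to 357 normalized counts in Empty, 4613 to 4988 in SAM1 and 638 to 689 in SAM2. Most of this was *Kdr*, the VEGF receptor, with 211 ± 31.5 in Empty, 4693 ± 194 in SAM1 and 536 ± 27.3 in SAM2. *Cdh5* and *Pecam1*, which define endothelium, had 77.6 ± 6.22 and 12.9 ± 2.42 in Empty and 64.7 ± 4.09 and 29.5 ± 3.69 in SAM1, and *Tek* had 35.6 ± 4.12 and 29.0 ± 6.18. In SAM2, *Cdh5* was lower (-0.63, adjusted p = 0.0083, limma) and *Tek* higher (0.89, adjusted p = 0.000894) than in Empty, with 51.2 ± 16.4 and 67.1 ± 12.6, and *Pecam1* had 12.0 ± 2.78. In SAM1, 2 of the 4 were higher and 0 lower, and with quantile normalization 2 were higher and 2 lower. Of 6 haematopoietic markers, *Cd68* (0.50 and 0.60) and *Csf1r* (0.16, adjusted p = 0.125, limma, and -0.028 with quantile normalization in SAM1, and -1.01 in SAM2) were in the table, with sums of 529 to 639 in Empty, 753 to 800 in SAM1 and 652 to 689 in SAM2. Of 4 muscle markers only *Des* was in the table, with sums of 44.4 to 83.0, 90.8 to 111 and 223 to 245 in the same order. Of 5 neural and glial markers 3 were in the table, among them *Nes* (2.05 and 1.98) and *Tubb3* (1.57 and 1.08), with sums of 2176 to 2345 in Empty, 8988 to 9160 in SAM1 and 8273 to 8460 in SAM2. *Ptprc*, *Myod1* and *Sox10*, which define blood, muscle and glial cells, were on the lists but not in the table. The part of such cells in the levels of the 10 transcription factor genes was not tested.

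Neighbouring genes were compared within 1 Mb on each side. *Snai1* had 30 listed neighbours, whose median log2 fold change in SAM1 was 0.39, and 22 of the 25 that passed were higher, as *Snai1* was. The median over its chromosome was 0.27, and *Snai1* itself had 1.26. In SAM2 the same values were 0.29 for the neighbours, 0.16 for the chromosome and 0.36 for *Snai1*. The 11 neighbours of *Zeb1* had a median of -0.055 in SAM1 beside -0.96 for *Zeb1*, and 4 of the 6 that passed were lower, as *Zeb1* was. The 23 neighbours of *Runx2* had medians of 0.23 and 0.19 in SAM1 and SAM2, and the 19 neighbours of *Twist2* of -0.073 and 0.12. Around *Tcf4*, 7 neighbours had medians of 0.73 in SAM1 and 0.60 in SAM2, above the 0.089 and 0.35 of *Tcf4* itself. *Twist1* had only 4 listed neighbours, all lower in SAM1 (median -0.39). The part of the surroundings in the value of any of these genes was not tested.

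Some of the 10 genes overlap other listed genes, and whether counting used strand is not stated in the sources used here, so reads of antisense partners cannot be told apart. *Gm29100*, antisense to the start of *Twist2*, had mean normalized counts of 53.4 in Empty, 115 in SAM1 and 55.0 in SAM2, with log2 fold changes of 1.07 and 0.033. *Runx2os1*, antisense to *Runx2*, had 69.0, 156 and 74.2, with log2 fold changes of 1.17 and 0.091. Both thus had their highest mean in SAM1, as their partners did, at a small part of the partner's level. *Zeb2os*, antisense to *Zeb2*, had 92.1, 97.8 and 51.5, and its log2 fold change in SAM2 was -0.82 where *Zeb2* had 0.051. *Supt3*, which overlaps *Runx2* on the other strand, had 1089, 1069 and 1291.

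For each of the 10 genes, the genes most like it over the 9 libraries were those with the smallest root mean square (RMS) difference of mean-centred log2 values. *Snai1* was closest to *Osbpl3* (RMS 0.028, against an RMS of 0.53 for the deviations of *Snai1* itself), an oxysterol-binding protein gene, and then to *Spp1* (0.056). *Zeb1* was closest to *Slc44a1* (0.043), a choline transporter gene, and *Pawr* (0.048). *Twist2* had *Stx1a* (0.035) and *Commd9* (0.041), and *Runx2* had *Elovl4* (0.030) and *Abcd3* (0.031). For genes with smaller changes the nearest were *Tgfb1i1* (0.030) and *Gprc5b* (0.030) for *Prrx1*, *Ahnak2* (0.025) and *Crim1* (0.030) for *Runx1*, and *Necap1* (0.027) and *Sun2* (0.028) for *Tcf4*. *Snai2* had *Ndufs1* (0.024) and *Cstf2t* (0.024), *Twist1* had *Gatad1* (0.035) and *Cep63* (0.035), and *Zeb2* had *Pip4k2a* (0.035) and *Ccnk* (0.036). This likeness is a description over libraries of 3 groups and was not tested.

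The study compared all 6 Hnrnpk_SAM libraries with the 3 Empty libraries. In that comparison 7 of the 10 genes passed, 3 higher and 4 lower, beside 53.9% of all genes, 26.8% higher and 27.0% lower. *Snai1* (0.81, SE 0.255, adjusted p = 0.0231, limma), *Runx2* (0.47, adjusted p = 0.0167) and *Tcf4* (0.22, adjusted p = 0.0414) were higher. *Zeb1* (-0.62, SE 0.201, adjusted p = 0.0267), *Runx1* (-0.38, adjusted p = 0.0153), *Prrx1* (-0.37, adjusted p = 0.00435) and *Snai2* (-0.20, SE 0.0431, adjusted p = 0.00309) were lower. The gap between the lines enters the spread of this fit, so the SE of *Snai1* was 0.255 here and 0.0376 in the fit of 3 groups. *Twist2* (0.38, adjusted p = 0.128), *Twist1* (-0.14, adjusted p = 0.0794) and *Zeb2* (0.11, adjusted p = 0.184) did not pass. The count was 3 without Empty replicate 1, 3 without Empty replicate 2 and 4 without Empty replicate 3, and 9 for the mean of the lines in the fit of 3 groups. *Snai1*, *Zeb1* and *Tcf4* lost their call without any of these Empty libraries, *Runx1* without Empty replicate 1, *Runx2* without Empty replicate 2, and *Tcf4* also without any SAM2 library. *Twist1* passed without SAM1 replicate 2 (adjusted p = 0.0243). *Prrx1* and *Snai2* passed whichever library was left out, and *Prrx1* did not with quantile normalization (-0.19, adjusted p = 0.154).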

How the data were processed

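PolyA+ RNA was sequenced from libraries made with a strand-directional kit, in pairs of 43 bases on a NextSeq 500. Per the study's methods, the authors checked reads with FastQC (0.11.0), aligned them to GRCm39 with TopHat2 and Bowtie2 (3 mismatches, 20 multiple hits), counted them per gene of Gencode vM29 with HTSeq, divided the counts by DESeq2 size factors and kept genes above 10 in at least 30% of samples. The deposited values are this signal, normalized counts, not raw counts. Versions of the other tools are not given in the sources used here.

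Values were tested as log2(normalized count + 1) with limma (3.58.1, trend, R 4.3.3) on all 15184 genes, in a fit of 3 groups and in a fit of 6 libraries against 3, calling genes at a Benjamini-Hochberg adjusted p below 0.05. In every library 100% of the deposited values came out as whole reads when divided by the library's step (tolerance 0.001 reads), so reads were recovered and tested with edgeR (4.0.16, quasi-likelihood) and DESeq2 (1.42.0) as alternatives. These called 11301 and 10806 genes in SAM1, 10634 and 10120 in SAM2, 9320 and 8653 between the lines and 8168 and 8468 in the pooled comparison. For 1 library the unit check used here leaves out such steps, since its step lies close to 1, and its reads were recovered directly. Groups and replicate numbers came from the titles. Other alternatives were pseudocounts of 0.5 and 10, genes above 10 in every library, quantile normalization, a replicate block, leaving out each library and the mean of the lines. The fits were also run on simulated counts with changes in SAM1 alone. There limma recovered 85 of 100 changes of log2 1 and 17 of 100 changes of log2 0.5. The simulated spread was set and not estimated from these libraries, so these rates do not carry over to them.

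Named genes were all 10 members, *Tcf3*, *Tcf12*, *Id1*, *Id2*, *Id3*, *Cbfb*, *Ctbp1*, *Ctbp2*, *Cdh1*, *Vim* and *Cdh2*, the 3 genes of each other list with the smallest adjusted p in each line, the 2 nearest genes in pattern and *Hnrnpk*. Genes outside this rule are marked, some genes that meet it are not reported here, and overlapping genes were named by position. The lists were drawn up from textbook knowledge, and the members and lists were chosen with earlier results of these data known. Positions and exon lengths are from GENCODE vM39, in which 14791 gene names were found once, 68 more than once and 325 were not found. Promoters are from RefSeq (250 bases before to 50 after a start, GRCm38.p6).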

Additional observations from a re-analysis of the deposited data

Results flagged for a closer look

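The lines SAM1 and SAM2 differed from each other, by a test of the difference itself (limma, SAM2 minus SAM1, log2 scale), in 9 of the 10 genes. The difference was -0.89 for *Snai1*, -0.68 for *Twist2*, -0.46 for *Runx2*, -0.33 for *Runx1*, -0.26 for *Prrx1* and -0.18 for *Twist1*, all lower in SAM2. It was 0.70 for *Zeb1*, 0.26 for *Tcf4* and 0.092 for *Snai2*, all higher in SAM2. For *Snai1*, *Runx2*, *Zeb1* and *Snai2* both lines lay on the same side of Empty and SAM2 was the nearer, while for *Runx1*, *Prrx1* and *Tcf4* SAM2 was the farther. Which guide each line carries, and whether a line is 1 clone, is not given in the sources used here, so guide, clone and line cannot be told apart. A check for a library apart from the rest treated the 6 libraries of both lines as a group and left out Empty. It marked no library in any of the 10 genes. The lines differed in 9 of these genes, and that gap widens the spread of the 6 libraries. The check could thus hardly mark a library apart within its own line, and no conclusion is drawn from it.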

How the results depend on the processing

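The 40 values of the 10 genes (4 comparisons) were recomputed in 16 alternative settings and, pooled, for the mean of the lines. Of the 650 values, 611 kept their direction and their side of the threshold, 28 lost the call, 9 gained one and 2 changed sign. The sign changes were *Twist1* in SAM1 with quantile normalization (0.0066, adjusted p = 0.876) and *Zeb2* in SAM2 without Empty replicate 2 (-0.023, adjusted p = 0.611, with a range of -0.023 to 0.096 over the libraries left out), and the cause was not tested. Of the 10 genes, 7 passed in the pooled comparison, 4 with the replicate block and between 3 and 8 when 1 library was left out, with 3 without Empty replicate 1, 3 without Empty replicate 2 and 4 without Empty replicate 3. With the replicate block *Snai1*, *Zeb1* and *Tcf4* lost the pooled call, *Zeb2* gained one between the lines (adjusted p = 0.0105), and no other member's call changed. Same-numbered libraries of different groups had weak positive correlations of their deviations across genes (0.0024 to 0.12 over 9 pairs, mean 0.053). For the 18 pairs with different numbers the correlations were -0.12 to 0.046 (mean -0.027). The main fits did not take the numbers as pairs, and whether same-numbered libraries share an effect was not tested. The block moved the pooled calls of all genes from 8179 to 7343. In the fit of 3 groups it raised them, from 11275 to 11631 in SAM1 and from 10699 to 11095 in SAM2. Between the lines they went from 9162 to 9812. Quantile normalization moved the median of all genes by -0.056 in SAM1 and -0.033 in SAM2. With edgeR and DESeq2 on the recovered reads, 9, 8, 9 and 7 of the 10 genes passed in SAM1, SAM2, between the lines and pooled, as with limma. With 3 libraries a group, the smallest differences (*Snai2* between the lines, *Zeb2* in SAM1) changed with single libraries.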
